A study of Mus musculus with 4 samples.

Results

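The genes described here build and tie together mitotic chromosomes: the cohesin and condensin complexes with their loaders, releasers, acetyltransferases and protease, the Smc5 and Smc6 complex, the type II topoisomerases and a few further chromosome proteins. They were chosen by name, as a list of 35 genes, and all 35 were rows of the deposited tables, which hold 24411 genes. All 35 also passed the filter on low counts, which left 12244 tested genes. The list was drawn up with earlier results of these data known.

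The tested libraries were 2 from Dis3-/- and 2 from wild-type mouse hematopoietic stem cells on a C57BL/6 background. Dis3 is a catalytic subunit of the RNA exosome, the complex that trims and degrades RNA from its 3′ end. The Dis3-/- cells came from Dis3fl/fl;Mx-Cre marrow and the wild-type cells from Dis3fl/fl marrow without Cre, each grafted into lethally irradiated CD45.1 mice. Cre, driven by the interferon-inducible Mx promoter, was switched on with pIpC, an RNA mimic that elicits interferon, at 300 μg per injection (days 0 and 2), and cells were sorted on day 4. The labels give this protocol for both genotypes. Because only the Dis3-/- cells carried Mx-Cre, effects of Cre and of Dis3 loss cannot be told apart. The sort took Lineage- cells with EPCR and CD150 but without CD48, 100 cells to a library, which were read by RamDA-seq, which primes total RNA along its full length. The series text gives 2 mice per genotype, and nothing else in the labels says how replicates were kept separate, so the p-values measure the spread between these libraries.

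Library totals ran from 6085367 to 6442740 counts in Dis3-/- and from 6251761 to 6818535 counts in wild-type libraries. Dis3 itself had 140 and 193 counts in Dis3-/- libraries, against 388 and 335 counts in wild-type libraries (log2 fold change -1.02 ± 0.14 SE, edgeR adjusted p = 2.58e-04). Which exons Cre removes is not stated in the labels, so this value checks the genotype only in part. All 12 stem cell markers examined, among them Procr, Slamf1 and Hlf, had reads in every library. Their summed level was 1488 and 1545 TPM (the authors' values, scaled for transcript length and depth) in Dis3-/- libraries and 2302 and 2080 TPM in wild-type libraries. Of the markers of other blood and stromal cells, the erythroid genes Hbb-bs and Hba-a2, the granulocyte gene Ctsg, the monocyte gene Ly6c2, the B cell gene Ebf1, the T cell genes Cd3e and Cd3g and the mast cell genes Ms4a2 and Mcpt8 were listed at 0 counts in all 4 libraries. Summed levels of 3 multipotent progenitor markers were 313 and 278 TPM in Dis3-/- libraries, against 425 and 446 TPM in wild-type libraries. For 7 granulocyte markers they were 78.0 and 69.6 TPM in Dis3-/- and 103 and 94.2 TPM in wild-type libraries. Of 7 granulocyte markers 3 had reads in every library, as did 2 of 4 B cell, 1 of 3 mast cell and 2 of 4 monocyte markers. Of 4 endothelial and stromal markers only Pecam1 did, while Cdh5, Cxcl12 and Lepr were at 0 in at least 1 library. Summed levels in the same units were 23.6 and 28.4 TPM in Dis3-/-, against 32.6 and 35.4 TPM in wild-type libraries, for B cell markers, and 8.51 and 2.89 TPM in Dis3-/-, against 11.4 and 22.8 TPM in wild-type libraries, for mast cell markers. They were 52.3 and 46.1 TPM in Dis3-/-, against 83.4 and 83.6 TPM in wild-type libraries, for endothelial and stromal markers. For monocyte markers they were 37.8 and 40.7 TPM in Dis3-/-, against 34.9 and 37.1 TPM in wild-type libraries. Summed levels of erythroid, megakaryocyte, and T and NK cell markers overlapped between genotypes. Erythroid markers, 3 of 8 with reads in every library, held 201 and 152 TPM in Dis3-/- and 159 and 160 TPM in wild-type libraries. Megakaryocyte markers (4 of 5) held 106 and 60.0 TPM in Dis3-/- and 103 and 109 TPM in wild-type libraries. T and NK cell markers (1 of 4) held 260 and 211 TPM in Dis3-/- and 213 and 293 TPM in wild-type libraries. Only Nkg7 among them had reads in every library, and the T cell gene Cd3d was at 0 in at least 1. The part of these levels in the results below was not tested.

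Cohesin is a ring of Smc1a, Smc3 and Rad21 with a Stag subunit that holds sister chromatids together from replication to anaphase and folds interphase chromatin into loops, so that resting cells use it too. Condensin, a related ring around Smc2 and Smc4, compacts chromosomes for mitosis, and topoisomerase II removes the tangles between sister DNAs. At anaphase the protease separase, until then held by securin, cuts Rad21 and lets the sisters part. Hematopoietic stem cells are known for resting mostly outside the cell cycle, where the genes of this mitotic machinery are little used. Cells of both genotypes here were grafted and, per the labels, given pIpC, and the share of cycling cells was not measured. Wild-type libraries held Mki67 at a mean of 110 TPM and Top2a at 69.0 TPM.

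In Dis3-/- stem cells condensin, separase and topoisomerase IIα were higher, and core cohesin differed by less. All 9 genes of condensin, separase and topoisomerase IIα rose, by a median log2 fold change of 1.01. Of the 5 core cohesin genes 3 rose, and the median of the 5 was 0.26. On TPM values that median was 0.15, where the median of all genes was also lower (-0.11 on filtered values), and limma called none of these 3 genes. The median of all 12244 tested genes was -0.003. Over the whole list 21 of 35 genes rose, against a background of 12.7% of all tested genes called higher by edgeR's quasi-likelihood test at an adjusted p under 0.05. None of the 35 was called lower, against a background of 10.2%. None had an unadjusted p under 0.05 in that direction, and DESeq2 called none lower. In these libraries of pooled cells, more cycling cells and more of these transcripts per cell cannot be told apart.

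**Figure D1:**
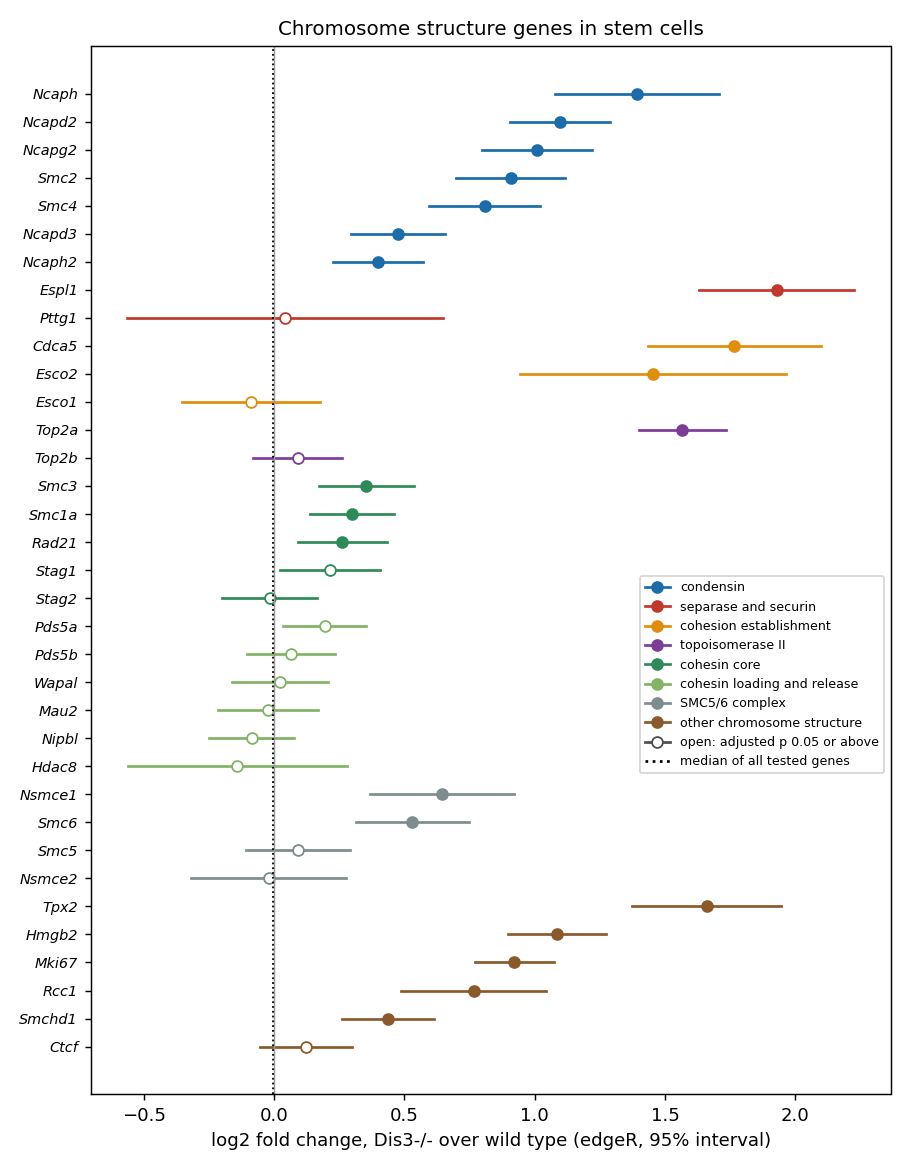
Log2 fold change (Dis3-/- over wild type) of the 35 genes on the horizontal axis, grouped by role down the page; points are edgeR estimates, bars unadjusted 95% intervals, and open points have an adjusted p of 0.05 or above. Espl1 at 1.93, Cdca5 at 1.77, Tpx2 at 1.66 and Top2a at 1.57 lie farthest right, while the cohesin loading and release genes cluster around 0.

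Levels per library are given below as CPM (counts scaled to a common library size), the scale on which fold changes were fitted, unless TPM is named. Espl1, which encodes separase (mm10, chr15:102296254-102324357), stood at 75.9 and 89.4 CPM in Dis3-/- libraries and at 19.9 and 23.7 CPM in wild-type libraries. The groups lay far apart, and the 3.81-fold difference was the widest of the list (log2 fold change 1.93 ± 0.14, edgeR adjusted p = 1.61e-06). Pttg1, the gene of the separase inhibitor securin, had 8.25 and 11.1 CPM in Dis3-/- libraries, against 7.78 and 11.1 CPM in wild-type libraries. Its libraries overlapped (0.04 ± 0.28, edgeR adjusted p = 0.936), and with 49 to 71 counts per library its 95% interval on the log2 scale ran from -0.56 to 0.65. Per length, Pttg1 amounted to 108% and 112% of Espl1 TPM in Dis3-/- libraries and to 331% and 410% in wild-type libraries. The inhibitor's transcript was thus about level with the protease's in Dis3-/- cells and well above it in wild-type cells.

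Top2a, the topoisomerase II of dividing cells (mm10, chr11:98992947-99024199), had 433 and 452 CPM in Dis3-/- libraries and 144 and 155 CPM in wild-type libraries. Both Dis3-/- libraries stood far above either wild-type library (2.96-fold, log2 fold change 1.57 ± 0.08, edgeR adjusted p = 4.31e-08). Its paralog Top2b, which also serves non-dividing cells, had 217 and 205 CPM in Dis3-/- libraries, against 193 and 203 CPM in wild-type libraries. These values barely separated, and Top2b was not called (0.09 ± 0.08, 95% interval -0.08 to 0.26, edgeR adjusted p = 0.453). On TPM values its estimate was slightly below 0. Top2a made up 68.3% and 70.5% of the pair's summed TPM in Dis3-/- libraries and 44.8% and 45.1% in wild-type libraries, so the more abundant paralog differed between genotypes. The log2 ratio of Top2a to Top2b, on log2(TPM + 1), was higher by 1.46 in Dis3-/- libraries. An exact 2-sided permutation test of this ratio gave p = 0.333, the smallest value that 2 against 2 libraries allow, and the same holds for every ratio tested below.

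Condensin genes rose without exception, but by unequal amounts. The kleisin gene Ncaph of condensin I, which gains access to chromosomes only after the nuclear envelope opens, had 45.4 and 50.2 CPM in Dis3-/- libraries, against 17.6 and 18.9 CPM in wild-type libraries (2.62-fold). Ncapd2, the other condensin I subunit gene of the list, had 295 and 339 CPM in Dis3-/- libraries, against 142 and 154 CPM in wild-type libraries (2.14-fold). In both genes the genotypes lay far apart, and edgeR adjusted p-values were 3.03e-05 and 4.16e-06.

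The ATPase genes Smc2 and Smc4, shared by condensin I and condensin II, rose together. Smc2 had 105 and 109 CPM in Dis3-/- libraries and 57.1 and 56.7 CPM in wild-type libraries (1.88-fold, edgeR adjusted p = 3.40e-05). Smc4 had 115 and 125 CPM in Dis3-/- libraries and 65.1 and 72.4 CPM in wild-type libraries (1.75-fold, edgeR adjusted p = 8.25e-05). Their proportion stayed within a narrow band: Smc2 TPM was 66.5% and 63.6% of Smc4 TPM in Dis3-/- libraries and 64.5% and 57.5% in wild-type libraries.

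The subunits of condensin II, the form that sits in the nucleus through interphase, were split. Ncapg2 had 129 and 147 CPM in Dis3-/- libraries and 70.7 and 66.4 CPM in wild-type libraries (log2 fold change 1.01 ± 0.10), close to the shared ATPases. Ncapd3 had 203 and 216 CPM in Dis3-/- libraries and 158 and 144 CPM in wild-type libraries (0.48 ± 0.08). Ncaph2 had 192 and 187 CPM in Dis3-/- libraries and 142 and 146 CPM in wild-type libraries (0.40 ± 0.08). All 3 kept the genotypes apart (edgeR adjusted p = 1.65e-05, 1.29e-03 and 2.93e-03), as did 31.9% of all tested genes with Dis3-/- higher. Yet Ncapd3 and Ncaph2 lay closer to Smc3 (0.35) than to the other condensin genes. Neither was called on unfiltered TPM values (limma adjusted p = 0.0855 for Ncapd3 and 0.0552 for Ncaph2). The 95% interval of Ncaph2, from 0.23 to 0.57, covers the estimate for Smc3. Ncaph2 is also the only gene of the list with fractional counts. Its exons overlap those of Sco2 and Tymp on the other strand, genes with 5.6 to 28 counts in the Dis3-/- and 4.1 to 17 counts in the wild-type libraries.

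Counterpart subunits stood in different proportions in the genotypes. Ncaph made up 22.7% and 25.1% of the summed TPM of Ncaph and Ncaph2 in Dis3-/- libraries, against 13.4% and 13.9% in wild-type libraries. Ncapd2 made up 64.0% and 65.8% of the sum with Ncapd3 in Dis3-/- libraries, against 52.5% and 56.8% in wild-type libraries. The condensin I share was larger in each Dis3-/- library than in either wild-type library, a difference that was not tested.

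Core cohesin was abundant in both genotypes and differed little. Smc3 had 140 and 133 CPM in Dis3-/- libraries and 105 and 109 CPM in wild-type libraries (log2 fold change 0.35 ± 0.09, edgeR adjusted p = 8.95e-03). Smc1a had 290 and 281 CPM in Dis3-/- libraries and 234 and 230 CPM in wild-type libraries (0.30 ± 0.07, edgeR adjusted p = 0.0107). Rad21, the kleisin that separase cuts, had 213 and 208 CPM in Dis3-/- libraries and 170 and 181 CPM in wild-type libraries (0.26 ± 0.08, edgeR adjusted p = 0.0295). In these 3 genes the genotypes did not overlap, but the rises were of 1.20-fold to 1.28-fold. Of all tested genes 31.9% lay apart with Dis3-/- libraries higher. The call of Rad21 ended in 8 of 12 alternatives, among them DESeq2 (adjusted p = 0.0740) and leaving out wild-type replicate 1 (edgeR adjusted p = 0.190), Dis3-/- replicate 1 (0.0737) or Dis3-/- replicate 2 (0.0509). With wild-type replicate 2 left out Smc1a was no longer called (edgeR adjusted p = 0.0514), and with wild-type replicate 1 left out Smc3 was not (0.0612). Tested with limma on TPM, both missed the threshold, with adjusted p between 0.0905 and 0.118.

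The Stag genes, whose products are alternative subunits, were not called. Stag1 had 127 and 141 CPM in Dis3-/- libraries and 112 and 119 CPM in wild-type libraries (0.22 ± 0.09, edgeR adjusted p = 0.0991). Stag2 had 237 and 220 CPM in Dis3-/- libraries and 217 and 245 CPM in wild-type libraries (-0.02 ± 0.08, 95% interval -0.20 to 0.17, edgeR adjusted p = 0.917). Stag2 was the more abundant of the pair in every library, with Stag1 at 34.2% and 38.2% of their summed TPM in Dis3-/- and 33.3% and 31.9% in wild-type libraries. The log2 ratio of Stag1 to Stag2 was higher by 0.22 in Dis3-/- libraries (exact p = 0.333), or by 0.099 without Dis3-/- replicate 2.

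**Figure D2:**
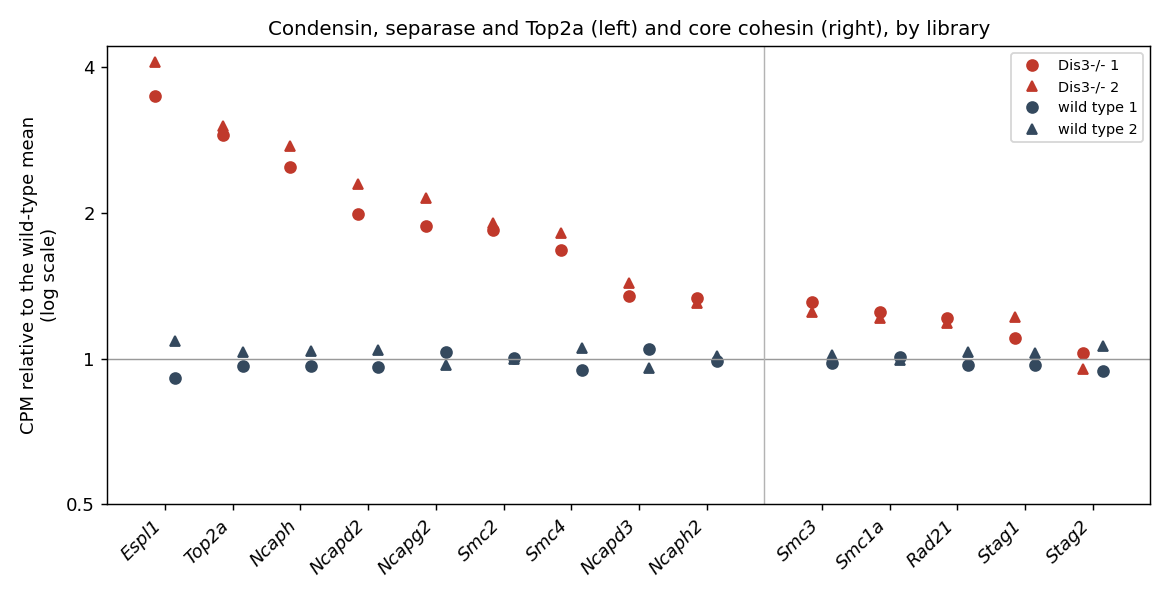
CPM of each library divided by the wild-type mean of that gene, on a log scale, for condensin, separase and Top2a (left of the line) and core cohesin (right of it); red marks Dis3-/- and dark marks wild-type libraries, circles replicate 1 and triangles replicate 2. All 9 genes on the left keep the genotypes apart, from Espl1 with the widest gap to Ncaph2 with a gap like that of Smc3, while the Stag2 libraries overlap. Of all tested genes 31.9% keep the genotypes apart with Dis3-/- higher.

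The difference between the median log2 fold changes of these sets, 0.75, is a description, since genes are not replicates and the sets were named with results known. Leaving out 1 library at a time placed it between 0.63 and 0.82. The smallest value came without Dis3-/- replicate 2, the library in which all of the mitotic genes but Ncaph2 were highest. By library, the median gene of condensin, separase and Top2a stood 0.91 and 1.10 above the wild-type mean on the log2 scale in Dis3-/- libraries. That of core cohesin stood 0.28 above it in either Dis3-/- library. Summed over members, the mitotic set held 747 and 822 TPM in Dis3-/- libraries, against 433 and 438 TPM in wild-type libraries. Core cohesin held 492 and 493 TPM in Dis3-/- libraries and 448 and 462 TPM in wild-type libraries, so that the mitotic set held the larger sum in Dis3-/- cells and the smaller one in wild-type cells.

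Promoters were examined because members of the mitotic set rose together. Many late cell cycle genes carry a short element named CHR, often beside CCAAT boxes. RefSeq promoter windows on GRCm38.p6, the assembly of mm10, run from 250 bases before to 50 bases after a start site, and 27 of the 35 genes matched 30 windows. Unmatched were Esco1, Esco2, Nipbl, Nsmce2, Rad21, Smc4, Stag2 and Tpx2. Each motif was searched on both strands. The CHR was searched as TTTGAA and the CCAAT box as its own letters. E2F-type sites were searched as TTTGGCG with its variant TTTCGCG. A further E2F-type site was searched as GGCGGGAA. No pattern contains another. The windows of Espl1, Top2a and Cdca5 are shown because these genes rose most among those with a window, that of Top2b for its contrast with Top2a, and that of Smc3 for core cohesin. They are written 5′ to 3′ on the strand of the gene, with matches in capitals. A match on the other strand reads TTCAAA or ATTGG.
Espl1, chr15:102296043-102296342, plus strand: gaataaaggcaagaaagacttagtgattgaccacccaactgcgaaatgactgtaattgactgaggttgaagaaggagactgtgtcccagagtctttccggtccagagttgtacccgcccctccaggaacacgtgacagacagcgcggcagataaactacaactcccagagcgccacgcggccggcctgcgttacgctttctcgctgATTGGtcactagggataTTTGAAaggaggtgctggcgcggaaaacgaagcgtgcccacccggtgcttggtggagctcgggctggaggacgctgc
Cdca5, chr19:6084847-6085146, plus strand: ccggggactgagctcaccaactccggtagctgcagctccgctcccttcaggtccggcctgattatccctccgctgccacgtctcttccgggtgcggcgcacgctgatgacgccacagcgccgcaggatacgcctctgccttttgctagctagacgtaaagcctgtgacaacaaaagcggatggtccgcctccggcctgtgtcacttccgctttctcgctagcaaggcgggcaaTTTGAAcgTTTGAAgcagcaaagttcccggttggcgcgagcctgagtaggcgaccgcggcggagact
Top2a, chr11:99024140-99024439, minus strand: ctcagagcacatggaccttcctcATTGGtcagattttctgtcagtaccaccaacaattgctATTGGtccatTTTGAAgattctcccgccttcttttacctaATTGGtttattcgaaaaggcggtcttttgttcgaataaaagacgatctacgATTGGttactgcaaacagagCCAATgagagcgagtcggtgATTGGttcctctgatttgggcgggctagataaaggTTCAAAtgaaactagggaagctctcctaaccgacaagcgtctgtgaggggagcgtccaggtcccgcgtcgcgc
Top2b, chr14:16364956-16365255, plus strand: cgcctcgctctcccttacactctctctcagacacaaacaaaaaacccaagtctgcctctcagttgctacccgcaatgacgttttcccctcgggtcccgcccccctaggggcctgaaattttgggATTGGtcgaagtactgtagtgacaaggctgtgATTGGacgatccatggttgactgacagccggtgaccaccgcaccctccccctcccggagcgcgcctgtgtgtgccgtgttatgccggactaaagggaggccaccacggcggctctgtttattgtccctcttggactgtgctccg
Smc3, chr19:53600146-53600445, plus strand: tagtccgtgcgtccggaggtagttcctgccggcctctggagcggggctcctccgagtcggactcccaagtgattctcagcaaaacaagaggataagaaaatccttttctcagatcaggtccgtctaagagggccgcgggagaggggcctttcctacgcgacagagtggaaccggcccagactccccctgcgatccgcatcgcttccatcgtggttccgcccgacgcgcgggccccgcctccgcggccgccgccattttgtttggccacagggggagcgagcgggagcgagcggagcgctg

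In the Espl1 window TTTGAA begins 27 bases before the start site, with a CCAAT box on the other strand at -44. Positions count from the start site of each window. For Espl1 and Top2a that site lies inside the gene span given above. Cdca5 holds TTTGAA at -17 and again at -9. Top2a holds it at -179 and, on the other strand, at -23, together with 6 CCAAT boxes. Top2b has CCAAT boxes at -126 and -94 and no TTTGAA, and the Smc3 window holds none of the searched motifs. Among windows of genes called higher 12 of 19 (63.2%) held TTTGAA, among those of genes not called 3 of 11 (27.3%), and among all 32851 promoter windows 17.9%. Ncaph, which rose 2.62-fold, had none of these motifs in its window, while Hdac8, which was not called, had 2 TTTGAA matches (-244 and -129). Pds5b, also not called, had TTTGAA at -32 and CCAAT boxes on the other strand at -66 and 37. Distant matches were counted too, as in Rcc1 (-222) and Smc6 (-199), which were called, and Ctcf (-161), which was not. CCAAT boxes were in 42.1% of windows of called genes, 45.5% of windows of genes not called and 37.4% of all windows. E2F-type letters TTTGGCG or TTTCGCG were in the windows of Ncapd2 and Pds5a, against 2.37% of all windows, and GGCGGGAA in those of Ncapg2 and Pds5a, against 2.19% of all windows. These matches describe letters in fixed windows, and no binding was measured.

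Of the genes that establish cohesion in S phase, Cdca5 and Esco2 rose and Esco1 was not called. Cdca5, the gene of sororin, which shields cohesin from release, had 49.7 and 56.9 CPM in Dis3-/- libraries and 14.4 and 17.0 CPM in wild-type libraries. The groups were widely apart (3.40-fold, log2 fold change 1.77 ± 0.15, edgeR adjusted p = 6.80e-06). Esco2, an acetyltransferase that marks Smc3 during replication, had 18.2 and 18.6 CPM in Dis3-/- libraries, against 7.64 and 5.72 CPM in wild-type libraries. It was the least abundant gene of the list in TPM in both genotypes, and rose 2.74-fold (1.45 ± 0.24, edgeR adjusted p = 7.22e-04), though it was not called on unfiltered TPM values (limma adjusted p = 0.0556). Esco1, the acetyltransferase that acts throughout the cell cycle, had 46.3 and 45.5 CPM in Dis3-/- libraries and 46.0 and 51.6 CPM in wild-type libraries. Its libraries overlapped (-0.09 ± 0.12, 95% interval -0.35 to 0.18, edgeR adjusted p = 0.657).

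Esco2 made up 38.5% and 39.5% of the summed TPM of the acetyltransferase pair in Dis3-/- libraries, against 20.9% and 14.998% in wild-type libraries. Esco1 thus remained the larger share in each library. The log2 ratio of Esco2 to Esco1 was higher by 1.41 in Dis3-/- libraries (exact p = 0.333), and between 1.16 and 1.67 with 1 library left out.

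**Figure D3:**
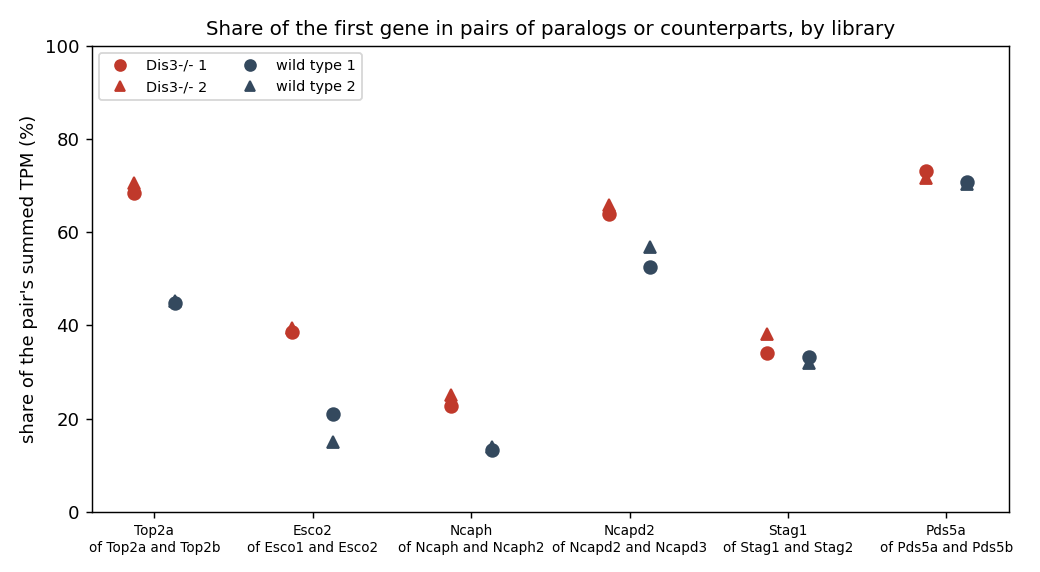
Share of the first-named gene in the summed TPM of a pair (vertical axis, percent) in each library, for 6 pairs of paralogs or counterparts; red marks Dis3-/- and dark marks wild-type libraries. Top2a has 68.3% and 70.5% in Dis3-/- libraries and 44.8% and 45.1% in wild-type libraries. Esco2, Ncaph and Ncapd2 also have larger shares in both Dis3-/- libraries. Stag1 and Pds5a do too, but by less.

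None of the 6 cohesin loading and release genes was called by edgeR or by DESeq2. By edgeR 12.7% of all tested genes were called higher and 10.2% lower, so 6 genes without a call do not stand out. Pds5a alone had an unadjusted edgeR p under 0.05, as did 2321 of all 12244 tested genes in the same direction. The median log2 fold change of the 6 genes was 0.001. Pds5a, whose product binds the ring and helps both to hold and to release it, had 333 and 324 CPM in Dis3-/- libraries and 297 and 277 CPM in wild-type libraries. Its Dis3-/- libraries were slightly higher without overlap (0.19 ± 0.07, edgeR adjusted p = 0.0766). The paralog Pds5b had 218 and 229 CPM in Dis3-/- libraries and 219 and 209 CPM in wild-type libraries (0.07 ± 0.08, edgeR adjusted p = 0.595). Pds5a held 73.2% and 71.7% of the pair's summed TPM in Dis3-/- libraries and 70.8% and 70.4% in wild-type libraries. The log2 ratio of Pds5a to Pds5b was higher by 0.13 in Dis3-/- libraries (exact p = 0.333), or by 0.075 without Dis3-/- replicate 1.

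The loader genes Nipbl and Mau2 gave log2 fold changes of -0.09 ± 0.08 and -0.02 ± 0.09, and the release factor gene Wapal (also named Wapl) one of 0.02 ± 0.09 (edgeR adjusted p = 0.455, 0.892 and 0.872). Nipbl, at 282 and 271 CPM in Dis3-/- libraries and 283 and 303 CPM in wild-type libraries, was the only gene of the list whose Dis3-/- libraries both lay under both wild-type libraries in CPM. In TPM Stag2 and Esco1 did so too. Hdac8, which removes the acetyl mark from Smc3, had 26.4 and 18.1 CPM in Dis3-/- libraries and 26.4 and 22.5 CPM in wild-type libraries. Its Dis3-/- replicates differed more from each other than the genotypes did (-0.14 ± 0.20, 95% interval -0.56 to 0.28, edgeR adjusted p = 0.653). The 95% intervals were -0.25 to 0.08 for Nipbl, -0.21 to 0.17 for Mau2 and -0.16 to 0.21 for Wapal. Over the list, 25 genes had both Dis3-/- libraries above both wild-type libraries, against 31.9% of all tested genes. Nipbl alone lay below, against 30.5% of all tested genes.

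The Smc5 and Smc6 complex, another SMC ring, which deals with joined DNA in replication and repair, was split within itself. Smc6 had 95.4 and 87.7 CPM in Dis3-/- libraries and 61.9 and 64.8 CPM in wild-type libraries (0.53 ± 0.10, edgeR adjusted p = 2.12e-03). Its partner Smc5 had 148 and 135 CPM in Dis3-/- libraries and 124 and 141 CPM in wild-type libraries, with overlap (0.09 ± 0.09, edgeR adjusted p = 0.514). Nsmce1, a RING finger subunit, had 49.8 and 48.2 CPM in Dis3-/- libraries and 31.8 and 30.8 CPM in wild-type libraries (0.64 ± 0.13, edgeR adjusted p = 2.71e-03). The SUMO ligase gene Nsmce2 had 32.5 and 33.0 CPM in Dis3-/- libraries and 32.4 and 34.0 CPM in wild-type libraries (-0.02 ± 0.14, edgeR adjusted p = 0.940). So 2 of the 4 subunits rose, against 12.7% of all tested genes called higher, and 2 were not called. The 2 that rose lay without overlap, as did 31.9% of all tested genes in this direction. The call of Smc6 ended on log2(TPM + 1) values (limma adjusted p = 0.0507, and 0.0829 without a filter).

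Among the further chromosome proteins 5 of 6 rose, against 12.7% of all tested genes. Mki67, whose product Ki-67 coats mitotic chromosomes and keeps them from clumping, had 877 and 898 CPM in Dis3-/- libraries and 441 and 495 CPM in wild-type libraries (1.89-fold, edgeR adjusted p = 2.40e-06). Tpx2, which helps nucleate spindle microtubules, had 75.1 and 92.4 CPM in Dis3-/- libraries and 27.1 and 25.9 CPM in wild-type libraries (3.16-fold, edgeR adjusted p = 3.93e-06). Hmgb2, a DNA-bending protein gene, had 184 and 172 CPM in Dis3-/- libraries and 81.7 and 86.2 CPM in wild-type libraries (2.12-fold, edgeR adjusted p = 3.93e-06). All 3 kept the genotypes far apart. Rcc1, which charges Ran with GTP on chromatin, had 49.5 and 53.0 CPM in Dis3-/- libraries and 30.1 and 30.2 CPM in wild-type libraries (1.70-fold, edgeR adjusted p = 9.09e-04). Its exons overlap those of the noncoding RNA gene Snhg3 on the same strand (0.75 ± 0.30, edgeR adjusted p = 0.0851). Reads of the pair can thus be shared, though both genes had whole counts in every library.

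Smchd1, an SMC-type protein known for its part in X inactivation, rose 1.35-fold, with 341 and 297 CPM in Dis3-/- libraries and 234 and 237 CPM in wild-type libraries (0.44 ± 0.08, edgeR adjusted p = 2.02e-03). It was not called on unfiltered TPM values (limma adjusted p = 0.0826). Ctcf, the gene of the insulator protein at whose sites cohesin loops often end, had 163 and 171 CPM in Dis3-/- libraries and 156 and 150 CPM in wild-type libraries. It was not called (0.12 ± 0.08, 95% interval -0.05 to 0.30, edgeR adjusted p = 0.305).

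On the per-length scale the order of the genes changed with the mitotic rises. In Dis3-/- libraries the most abundant were Mki67 (194 ± 6.85 TPM, SD, n = 2), Top2a (189 ± 9.43), Pds5a (178 ± 0.276) and Smc1a (162 ± 0.325). In wild-type libraries they were Pds5a (168 ± 10.3 TPM), Smc1a (142 ± 3.44), Rad21 (119 ± 3.87) and Mki67 (110 ± 7.62), with Top2a at 69.0 ± 2.40 TPM in place 16. The means of Mki67 and Top2a in Dis3-/- cells lay closer together than the sum of their SDs, as did those of Rad21 and Mki67 in wild-type cells. Espl1 and Esco2 stood at the low end in both genotypes.

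**Figure D4:**
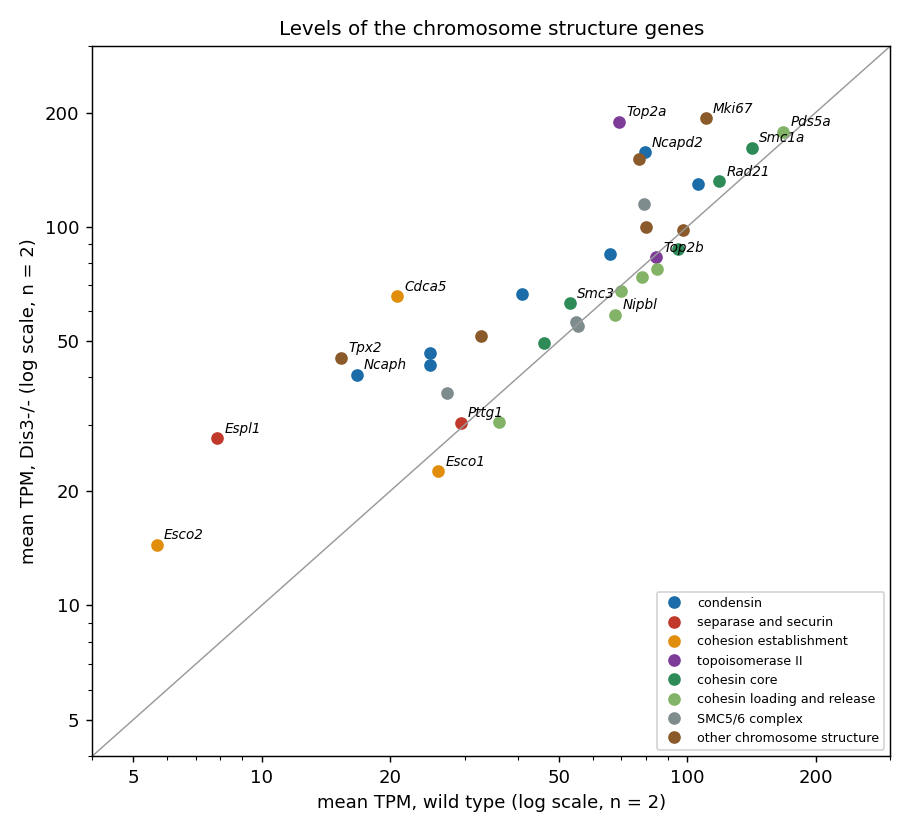
Mean TPM of each gene in Dis3-/- libraries (vertical, log scale) against wild-type libraries (horizontal, log scale), n = 2 each, coloured by role; the line marks equal levels. Top2a, Cdca5, Tpx2, Espl1 and Esco2 lie well above the line, and Stag, Pds5 and loader genes lie along it.

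Other genes of the same pathways, from lists of 74 names, were tested for 69. Of these 41 rose, against 12.7% of all tested genes, and 3 fell, against 10.2% of all tested genes, with a median log2 fold change of 0.54. Among cohesin and cohesion partners 11 of 20 rose. The smallest p belonged to the kinase genes Aurkb (1.74 ± 0.16), Bub1 (1.59 ± 0.16) and Plk1 (1.54 ± 0.17), whose products guard or strip cohesion in mitosis. Among condensin and mitotic chromosome partners 12 of 15 rose, with the smallest p for the chromokinesin gene Kif4 (1.82 ± 0.15), Nusap1 (1.92 ± 0.19) and Incenp (1.03 ± 0.10). The condensin I subunit gene Ncapg, singled out after its values were seen because it completes that complex, stood at 26.9 and 25.5 TPM in Dis3-/- libraries and at 10.0 and 11.4 TPM in wild-type libraries (1.41 ± 0.16, edgeR adjusted p = 4.47e-05).

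Of the Ran and spindle partners 9 of 10 rose, against 12.7% of all tested genes, and the same background applies to the lists that follow. The smallest p belonged to Kif11 (1.81 ± 0.10), Ran (0.81 ± 0.07) and Kif15 (1.57 ± 0.14), while Rcc2 was not called (0.07 ± 0.08, edgeR adjusted p = 0.554). Of topoisomerases and architectural proteins 8 of 19 rose, with the smallest p for the lamin gene Lmnb1 (0.70 ± 0.08) and the heterochromatin protein genes Cbx5 (0.62 ± 0.08) and Cbx3 (0.64 ± 0.08). Of 5 tested partners of Smc5 and Smc6 only Nsmce4a rose (0.43 ± 0.11, edgeR adjusted p = 0.0142), and Fam178a (0.16 ± 0.08) and Ankrd32 (0.18 ± 0.18) were not called. The call of Nsmce4a ended with DESeq2 (adjusted p = 0.0703), without Dis3-/- replicate 1 (edgeR adjusted p = 0.0558), without wild-type replicate 1 (0.0728) and on unfiltered TPM values (limma adjusted p = 0.0560), and that of Cbx5 on unfiltered TPM values (limma adjusted p = 0.0519). The edgeR adjusted p-values of the other named partners that rose ran from 1.62e-07 (Kif11) to 8.92e-05 (Cbx3).

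The 3 partner genes that fell, named after their values were seen, were Rec8, Phf8 and Hmga2. Rec8, known as the kleisin of meiotic cohesin, had 41.6 and 46.9 TPM in Dis3-/- libraries and 69.0 and 67.4 TPM in wild-type libraries (-0.51 ± 0.12, edgeR adjusted p = 7.98e-03). Phf8, a histone demethylase gene, had 24.7 and 23.9 TPM in Dis3-/- libraries and 35.9 and 31.7 TPM in wild-type libraries (-0.37 ± 0.11, edgeR adjusted p = 0.0203). Hmga2, an architectural protein gene, had 16.3 and 13.5 TPM in Dis3-/- libraries and 25.2 and 23.4 TPM in wild-type libraries (-0.60 ± 0.15, edgeR adjusted p = 0.0102). In all 3 both Dis3-/- libraries lay below both wild-type libraries in TPM. That is no separate support, since these genes were picked for being called lower. Of all tested genes 30.5% lay apart in this direction in CPM. Phf8 was not called by DESeq2 (adjusted p = 0.0762), nor by edgeR without Dis3-/- replicate 2 (adjusted p = 0.0576) or without wild-type replicate 1 (0.177). Hmga2 was not called by edgeR without Dis3-/- replicate 2 (adjusted p = 0.0821), and neither gene was called on unfiltered TPM values (limma adjusted p = 0.0869 for Phf8 and 0.0750 for Hmga2). Rec8 kept its call in all 12 alternatives.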

How the data were processed

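Per the submitters' processing notes, the authors used RSEM 1.3.3, Trim Galore 0.6.6, STAR 2.7.8a and the mm10 genome; what each tool did, which annotation was used and whether strand was counted is not stated there. The deposited tables hold expected counts, which the authors left unnormalized (92.4% of values exactly whole, values of 0 included), and TPM by the authors. Expected counts were rounded, and R 4.3.3 with edgeR 4.0.16 served for the tests: filterByExpr (minimum count 10, minimum total 15), TMM scaling, glmQLFit and a 2-sided glmQLFTest by genotype over 12244 genes, Benjamini-Hochberg adjusted, called under 0.05. SE is the log2 fold change over the root of the F statistic. Reads carry no molecular identifiers, so counts are of reads rather than of molecules and may overstate precision. The procedure was run on simulated counts, with known folds in a small part of the genes and equal replicate variation for all. That setting is simpler than these data, so the run does not measure error rates here. Alternatives used DESeq2 1.42.0 and limma 3.58.1 on log2(TPM + 1) and log2(TPM + 0.1), other scaling and filters, a replicate block, and each library left out in turn. Members, lists and tests were chosen with earlier results of these data known. Named were all members, Dis3 and the 3 partners per list with the smallest p; Ncapg and the 3 partners that fell were added after their values were seen. Replicates of a genotype were not identical; their counts differed by 4.16 (Dis3-/-) and 3.54 (wild type) in chi-square per degree of freedom. GENCODE M21 gave transcript lengths and exon overlaps.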

Additional observations from a re-analysis of the deposited data

How the results depend on the processing

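The median of all genes was -0.11 on filtered log2(TPM + 1) and log2(TPM + 0.1) values. On that scale the medians were 0.87 and 0.89 for condensin, separase and Top2a and 0.15 for core cohesin, or, on log2(TPM + 1), 0.98 and 0.26 relative to all genes. Without a filter on TPM they were 0.87 and 0.15, with 13 members and 27 partners called higher and 950 of all genes called in either direction, against 21, 41 and 2811 by edgeR; DESeq2 called 1742 of all genes. Partners called lower numbered 5 on filtered TPM values and 1 to 3 with 1 library left out. Without 1 library (the lone library left in a genotype is assumed to vary like the other group) the core cohesin median ran from 0.22 to 0.29 and the difference of medians from 0.63 to 0.82. With condensin I subunits only, the mitotic median was 1.24 and the difference 0.98. With loading and release factors added, the cohesin median was 0.065 and the difference 0.94. Removing the median of genes of like transcript length and GC content, chosen after seeing the data, left a difference of 0.78.

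Of the 14 uncalled members 5 (Stag1, Nipbl, Pds5a, Esco1 and Ctcf) kept their sign in all 12 alternatives, and the others changed it in at least 1. On log2(TPM + 1), filtered or not, Smc5 was -0.021, Wapal -0.088, Pds5b -0.047, Top2b -0.022 and Nsmce2 0.026, and on log2(TPM + 0.1) -0.021, -0.089, -0.048, -0.022 and 0.027. With 1 library left out, Mau2 ran from -0.13 to 0.090, Wapal from -0.056 to 0.11, Stag2 from -0.099 to 0.070, Pttg1 from -0.20 to 0.31, Hdac8 from -0.43 to 0.11 and Nsmce2 from -0.052 to 0.012. Of 36 genes (the members and Dis3) 19 kept direction and side of the threshold in all 12 alternatives, and the cause of the other changes was not tested. Replicate numbers did not pair libraries (correlation of deviations -0.028 over genes); with the replicate block 20 members were called higher, Rad21 (edgeR adjusted p = 0.0516) being lost, 0 lower, and 2614 of all genes.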
